A study of Homo sapiens with 9 samples.

Results

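The genes described here encode enzymes on the route from pregnenolone to cortisol and aldosterone: HSD3B1, HSD3B2, CYP21A2, CYP11B1 and CYP11B2. They were taken by name, with earlier results of these data known, and are 5 of the 60671 genes listed in the count files. All 5 were found by their Ensembl identifiers, and 3 of them (HSD3B2, CYP21A2 and CYP11B1) passed the filter on low counts that left 14150 genes for testing. RNA was sequenced from H295R, a steroid-producing human cell line derived from an adrenocortical carcinoma. The 9 libraries were poly-A selected from untreated cells at high confluency and fell into 3 groups of 3. The WT group had a wild-type genotype label, the KO group was labelled as SGPL1 knockout and the OE group as SGPL1 overexpressing. SGPL1 is sphingosine-1-phosphate lyase, which breaks down the signalling lipid sphingosine-1-phosphate. Libraries within a group are biological replicates per the design text. Whether they came from separate cultures, the kind of edit, the number of clones and the overexpression construct are not stated in the labels, so a p-value measures only how far these libraries spread, which may be technical in part.

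Cortisol and aldosterone are both made from cholesterol, which STAR brings into the mitochondrion and CYP11A1 cleaves to pregnenolone. The HSD3B enzymes then oxidise pregnenolone and its hydroxylated form, CYP21A2 hydroxylates the product in the endoplasmic reticulum, and CYP11B1 (to cortisol) or CYP11B2 (to aldosterone) completes the synthesis in the mitochondrion. HSD3B2 is the form known from adrenal and gonad and HSD3B1 the form known from placenta and skin, while CYP11B1 marks the cortisol-making zona fasciculata and CYP11B2 the aldosterone-making zona glomerulosa. Each of these genes has a close copy in the genome.

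The copies matter for the counts, since reads that mapped to several places were left out. Over the aligned transcripts of GENCODE release 29, HSD3B2 and HSD3B1 were 91.7% identical, with a longest identical run of 103 bases. CYP11B1 and CYP11B2 were 93.3% identical, with a longest identical run of 146 bases. CYP21A2 and its pseudogene CYP21A1P were 98.3% identical, with a longest identical run of 403 bases. The sources used here do not give the read length, so the share of each transcript that is unlike any other gene was computed for several word lengths. At 100 bases, 99.8% of the positions in HSD3B2, 95.9% in CYP11B1 and 96.3% in CYP11B2 occurred in no other gene, against 62.4% in CYP21A2, and at 50 bases the CYP21A2 share was 42.5%. CYP21A2 also shares 298 of its 2821 exon bases (10.6%) with TNXB on the other strand, and reads there were counted for neither gene. The level of CYP21A2 is therefore the one most limited by shared sequence, whereas its ratio between groups is taken over the same countable stretch in every library.

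HSD3B2 and CYP21A2 were both higher in OE-labelled libraries, so the upstream sequences of both are shown, with that of HSD3B1 as the near-silent copy. They are from RefSeq on GRCh38.p14, 5′ to 3′ on the gene's strand, and end 1 base before the gene's first annotated base in the count files. Capitals mark AGGTCA (the core bound by NR5A1 and other nuclear receptors), TGACG (the core bound by CREB family factors) and GATAA (the core bound by GATA factors). The first stretch is chr1:119414681-119414930, the next chr1:119506953-119507197 and the last chr6:32038165-32038326.
HSD3B2: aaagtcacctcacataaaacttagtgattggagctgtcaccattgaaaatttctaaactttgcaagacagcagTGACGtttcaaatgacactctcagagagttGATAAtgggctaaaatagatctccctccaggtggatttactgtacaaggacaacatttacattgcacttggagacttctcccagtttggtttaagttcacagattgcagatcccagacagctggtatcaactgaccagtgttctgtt
HSD3B1: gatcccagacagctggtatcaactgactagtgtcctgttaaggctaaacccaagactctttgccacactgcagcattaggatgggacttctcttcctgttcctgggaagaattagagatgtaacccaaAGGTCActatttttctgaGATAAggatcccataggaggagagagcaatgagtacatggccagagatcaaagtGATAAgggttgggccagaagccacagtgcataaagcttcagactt
CYP21A2: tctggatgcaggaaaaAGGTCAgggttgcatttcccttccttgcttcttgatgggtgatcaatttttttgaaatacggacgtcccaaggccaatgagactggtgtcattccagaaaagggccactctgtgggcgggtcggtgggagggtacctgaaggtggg

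Both strands of the 250 bases before the RefSeq start site were searched. AGGTCA was found in CYP21A2 at -234 to -229 and in HSD3B1 at -122 to -117, and in 12.1% of the 35116 upstream windows of that length in the table. Both hits lie within AAAGGTCA, the longer motif named for the NR4A receptors, which 1.0% of the windows hold. TGACG was found in HSD3B2 at -177 to -173 and in CYP21A2 at -8 to -4, the latter outside the printed stretch, and in 21.2% of the windows. GATAA was found at 1 place in HSD3B2, at -147 to -143, and at 2 places in HSD3B1, and in 20.4% of the windows. GGGCGG, the core of the GC box bound by SP1, was found in CYP21A2 at -121 to -116 and in 42.6% of the windows, and the full cyclic AMP response element TGACGTCA was in none of these 3 stretches. No motif searched was present in both HSD3B2 and CYP21A2 other than TGACG, which is common among all windows.

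The targeted gene was read first in every library. SGPL1 stood at 102, 83.4 and 98.1 CPM (counts scaled to a common library total) in WT replicates 1 to 3, at 47.2, 43.9 and 53.8 CPM in KO, and at 98.1, 81.3 and 101 CPM in OE-labelled libraries. The KO libraries lay below all others, with a log2 fold change against WT of -0.97 ± 0.14 (standard error, edgeR quasi-likelihood test, adjusted p = 1.05e-04). The libraries labelled OE overlapped WT, with a log2 fold change of -0.01 ± 0.14 (adjusted p = 0.966, 95% interval -0.30 to 0.27), so the counts do not show the overexpression named in the label. Library totals ran from 8006873 to 10895080 counts and 18634 to 19769 genes had a count. Of the 9 adrenocortical markers examined all had counts, with a summed level of 3969.8 to 4520.1 CPM in WT, 6755 to 8523 CPM in KO and 4567 to 5281 CPM in OE-labelled libraries, led by DLK1. Fibroblast markers summed to 17.2 to 27.5, 17.1 to 19.2 and 11.9 to 16.8 CPM in the same order of groups. The part of these marker levels in the results was not tested. The chromaffin markers TH, DBH and PNMT, the leukocyte markers PTPRC, CD3E and CD68 and the epithelial markers KRT5 and KRT14 were at 0 in every library. Log2 level declined with gene length in OE-labelled libraries and in WT replicate 2 relative to the other libraries (slopes of -0.204 to -0.053 per log2 of length, against 0.042 to 0.129 elsewhere), and OE replicate 2 was the extreme. In bulk RNA, fewer cells of a kind and less RNA per cell cannot be told apart.

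HSD3B2, the adrenal form of the enzyme that opens the route to both hormones, was the member with the clearest change. It rose 1.84-fold in KO and 7.46-fold in OE-labelled libraries. The gene (ENSG00000203859) spans chr1:119414931-119423035 on GRCh38 and has no exon base shared with another gene. WT replicates 1 to 3 stood at 13.1, 14.7 and 13.6 CPM, KO at 25.1, 22.5 and 28.6 CPM, and the libraries labelled OE at 106, 96.0 and 107 CPM. The 3 groups did not overlap in any pair, every KO library lay above every WT library, and every library labelled OE lay above both. Group means were 13.8 ± 0.800, 25.4 ± 3.05 and 103 ± 5.96 CPM (SD, n = 3). Against WT the log2 fold change was 0.88 ± 0.15 in KO (95% interval of the fold 1.48 to 2.29, adjusted p = 4.56e-04). In OE-labelled libraries it was 2.90 ± 0.15 (interval of the fold 6.00 to 9.27, adjusted p = 9.02e-09). That was the smallest p of the 14150 genes tested and the 10th highest log2 fold change. The libraries labelled OE exceeded KO by 2.02 ± 0.14 on the log2 scale, a 4.05-fold difference (adjusted p = 5.02e-08). These p-values are from the same edgeR test, and the 2 comparisons against WT share the WT libraries.

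Many other genes were called as well, and their shares are the background for the counts of called genes given below. In KO against WT 18.8% of all genes tested were called (9.16% higher and 9.60% lower) and 35.2% had groups that did not overlap. In OE-labelled libraries against WT 20.7% were called (9.65% higher and 11.0% lower) and 36.4% did not overlap. Between OE-labelled libraries and KO 39.7% were called (19.0% higher and 20.6% lower) and 51.7% did not overlap. The 1498 genes within 20% of the length of HSD3B2 had a median log2 fold change of 0.21 in OE-labelled libraries against WT, with 5th and 95th percentiles of -0.89 and 0.86. After a correction for gene length in each library the fold of HSD3B2 was 2.70 on the log2 scale (adjusted p = 1.16e-09).

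**Figure D1:**
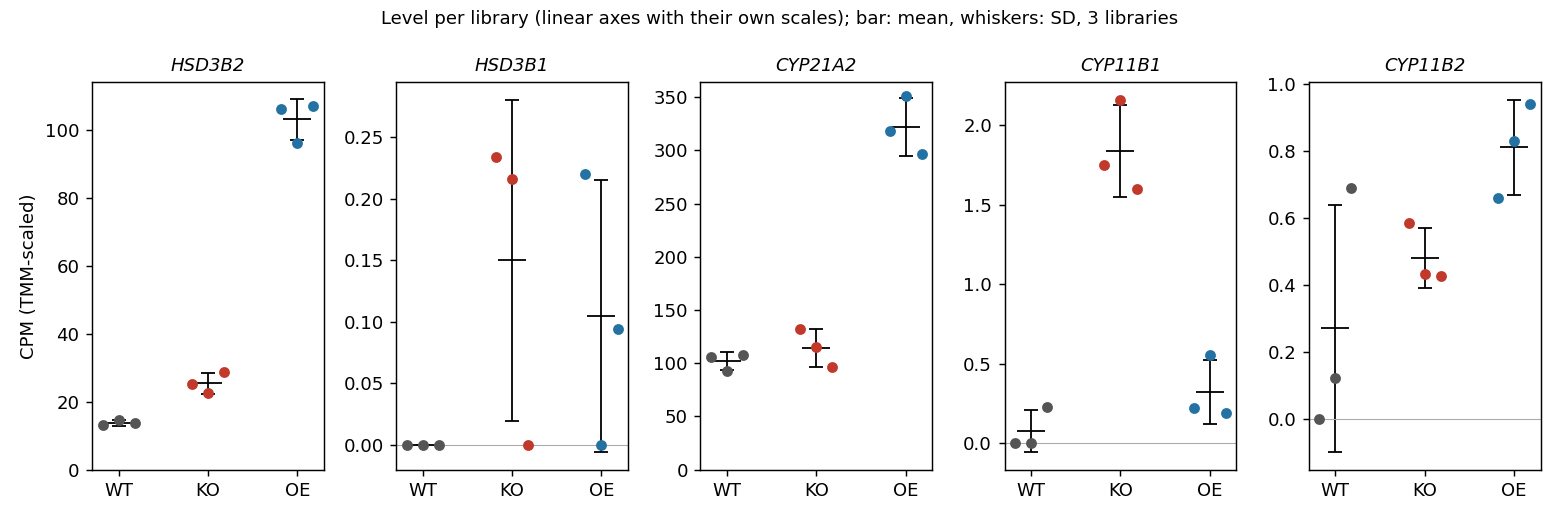
Level of each of the 5 genes in each library, in TMM-scaled CPM on linear axes that differ between panels, with group means (bars) and SD (whiskers) over 3 libraries. HSD3B2 is at 96.0 to 107 CPM in OE-labelled libraries against 13.1 to 14.7 in WT, CYP21A2 is at 297 to 351 against 92.6 to 108, and CYP11B1 stands out in KO at 1.60 to 2.16.

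HSD3B1, the placental form, was barely detected. WT replicates 1 to 3 held 0, 0 and 0 of its counts, the KO replicates 2, 2 and 0 and the OE-labelled replicates 2, 0 and 1. It did not pass the filter. The group sums of 0, 4 and 3 counts are at or near the floor of 3 counts over a group (0.110 to 0.117 CPM), so no fold against WT is given. The gene (ENSG00000203857, chr1:119507198-119515054) lies downstream of HSD3B2. HSD3B2 supplied at least 99.05% of the reads counted for the pair in every library. Its lowest exact 95% bound was 96.60%, with each count taken as independent. The share did not separate the groups (exact two-sided permutation p = 0.4 in each of 3 comparisons, where 0.1 is the smallest that 3 against 3 allows). Of the HSD3B pseudogenes of the cluster, HSD3BP1, HSD3BP3 and HSD3BP4 had 0 counts in all libraries and HSD3BP2 and HSD3BP5 reached at most 17 and 6 counts. HSD3B7, a relative that acts in bile acid synthesis, was at 1.21 to 4.38 CPM and was not called in any comparison.

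CYP21A2, whose product acts directly after the HSD3B step on both branches, rose 3.16-fold in OE-labelled libraries and was not called in KO. The gene (ENSG00000231852) spans chr6:32038327-32041644 in the class III region of the major histocompatibility complex. WT replicates 1 to 3 stood at 106, 92.6 and 108 CPM, KO at 132, 115 and 96.0 CPM, and the libraries labelled OE at 318, 351 and 297 CPM. KO overlapped WT, while all libraries labelled OE lay far above both. Means were 102 ± 8.28, 114 ± 17.8 and 322 ± 27.0 CPM (SD, n = 3). The libraries labelled OE exceeded WT by 1.66 ± 0.13 on the log2 scale (95% interval of the fold 2.60 to 3.82, adjusted p = 2.06e-06), the 4th smallest p of all genes tested. They exceeded KO by 1.50 ± 0.13, a 2.82-fold difference (adjusted p = 5.06e-07). KO differed from WT by 0.16 ± 0.13 (interval -0.11 to 0.44, adjusted p = 0.443), and a change within that interval was not detectable with these libraries. With the correction for gene length the difference between the libraries labelled OE and WT was 1.48 (adjusted p = 1.74e-07).

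In and beside the duplicated segment that holds CYP21A2, CYP21A1P and TNXA were also higher in OE-labelled libraries against WT, while TNXB, C4B and STK19 were not called. CYP21A1P, the pseudogene copy, had 8, 4 and 8 counts in the WT replicates, 13, 7 and 5 in the KO replicates and 23, 28 and 54 in the OE-labelled replicates. Its log2 fold change in OE-labelled libraries against WT was 2.29 ± 0.50 (adjusted p = 0.00519), and OE-labelled libraries lay above both other groups without overlap. TNXA, the truncated copy of the tenascin gene TNXB, had 4, 7 and 2 counts in the WT replicates, 2, 1 and 2 in the KO replicates and 16, 22 and 15 in the OE-labelled replicates. Its log2 fold change was 1.97 ± 0.59 against WT (adjusted p = 0.0267). That call was lost without WT replicate 1, WT replicate 3 or OE replicate 2 (adjusted p = 0.107, 0.142 and 0.132) and with DESeq2 (0.0569), while against KO the log2 difference of 3.37 ± 0.69 (adjusted p = 0.00114) kept its call without any 1 library. TNXB, which overlaps the end of CYP21A2 on the other strand, was at 1.14 ± 0.51 in OE-labelled libraries against WT and was not called (adjusted p = 0.122). C4B, a complement gene that lies between CYP21A1P and CYP21A2, was at 0.40 (adjusted p = 0.753), and STK19 was at -0.17 (0.660). The share of C4B that occurs in no other gene was not computed. A C4B log2 fold change of 0.80 in KO against WT was not called either (adjusted p = 0.505), so a change of that size could be missed. CYP21A2 supplied 98.32% to 99.47% of the reads counted for it and CYP21A1P in every library, and this share did not separate the groups (exact permutation p = 0.8 for KO against WT, 0.3 for OE-labelled libraries against WT and 0.3 against KO). These shares leave out reads that fit both copies equally. Whether reads of CYP21A2 contribute to the counts of its copies was not tested.

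**Figure D2:**
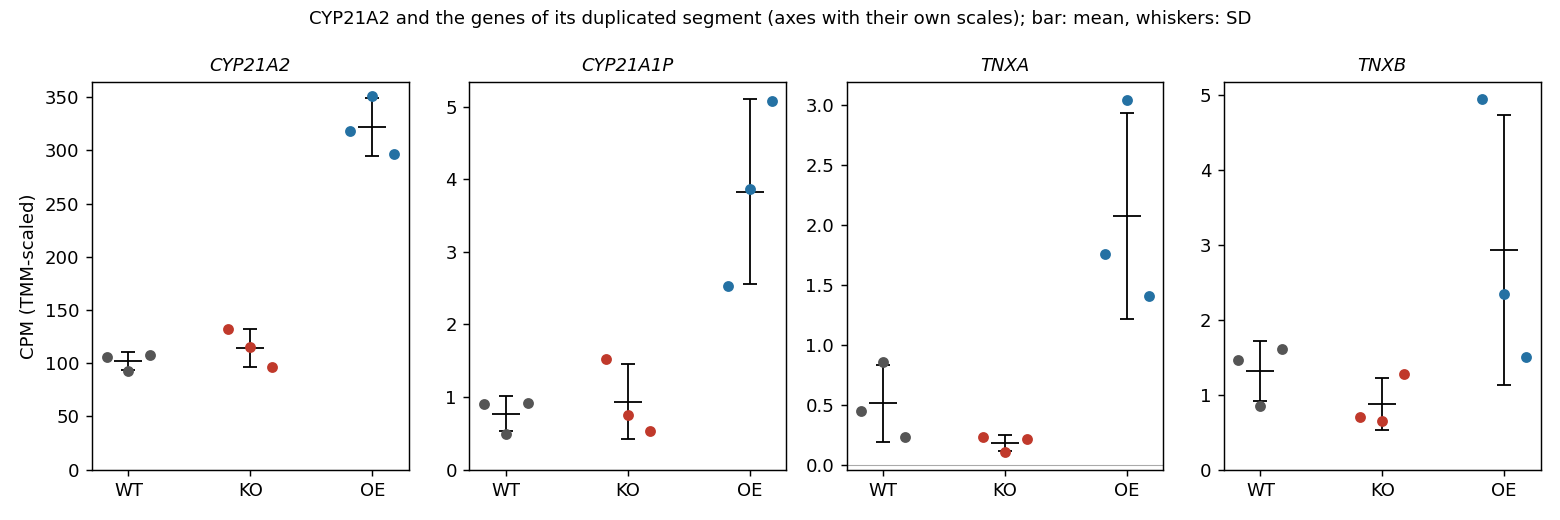
CYP21A2 and 3 genes of its duplicated segment in each library, in CPM on linear axes that differ between panels, with group means and SD over 3 libraries. CYP21A2, CYP21A1P and TNXA are highest in OE-labelled libraries, CYP21A2 at 297 to 351 CPM and its pseudogene at 2.53 to 5.08 CPM, while TNXB overlaps between those libraries and WT.

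CYP11B1, the enzyme of the last step to cortisol, was a low-count gene that was highest in KO. WT replicates 1 to 3 held 0, 0 and 2 of its counts, the KO replicates 15, 20 and 15 and the OE-labelled replicates 2, 4 and 2. All KO libraries lay above all others, and WT replicate 3 lay within the range of the libraries labelled OE. Summed over a group, KO held 50 counts, or 1.84 CPM with an exact Poisson interval of 1.37 to 2.43. WT held 2 counts, or 0.0778 CPM (interval 0.00942 to 0.281), and OE-labelled libraries 8 counts, or 0.297 CPM (interval 0.128 to 0.585). The ratio of KO to WT was 23.7 with a counting interval of 6.22 to 201, and that of the OE-labelled libraries to KO was 0.161 (0.0660 to 0.343). Such intervals cover counting error only and take each count as independent. Some low-count genes had only even counts, such as KLF9 (24, 6 and 24 in WT, 12, 8 and 6 in KO, 12, 10 and 12 in OE-labelled libraries). Whether 2 counts can come from 1 fragment was not tested, and if they do these intervals are too narrow. In the edgeR test KO was higher than WT (log2 fold change 4.34 ± 0.85, adjusted p = 0.00158) and the OE-labelled libraries were lower than KO (-2.55 ± 0.67, adjusted p = 0.00652). The libraries labelled OE were not called against WT (1.78 ± 1.10, adjusted p = 0.266). The gene passed the filter only through its counts in KO and so had to differ among the groups. Without a filter the log2 fold change of KO against WT was 4.35 (adjusted p = 3.05e-04). WT replicate 3 held both WT counts, and without it the fitted value was 7.04 (adjusted p = 0.00210), a number that rests on 0 counts in the WT libraries that remain. CYP11B1 (ENSG00000160882) lies at chr8:142872356-142879846.

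CYP11B2, the aldosterone synthase, was at the limit of detection in all groups. WT replicates 1 to 3 held 0, 1 and 6 of its counts, the KO replicates 5, 4 and 4 and the OE-labelled replicates 6, 6 and 10. WT replicate 3, with 6 counts, stood well above the other WT libraries, and both other groups overlapped WT in counts. The summed counts of 7, 13 and 22 gave ratios of 1.76 for KO to WT (counting interval 0.652 to 5.20), 3.00 for the OE-labelled libraries to WT (1.24 to 8.31) and 1.71 for the OE-labelled libraries to KO (0.822 to 3.68). The second interval lies above 1 only for counting error with each count taken as independent, which was not tested. In an edgeR fit without a filter, which includes the spread between libraries, none of the 3 was called (adjusted p = 0.697, 0.436 and 0.633). CYP11B2 (ENSG00000179142) lies at chr8:142910559-142917843, next to CYP11B1. Of the reads counted for the pair, CYP11B2 supplied 5 of 20, 4 of 24 and 4 of 19 in the KO libraries and 6 of 8, 6 of 10 and 10 of 12 in those labelled OE. In WT it supplied 1 of 1 and 6 of 8 reads, and replicate 1 had none of either gene. These shares were not tested because several libraries had under 10 reads for the pair.

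**Figure D3:**
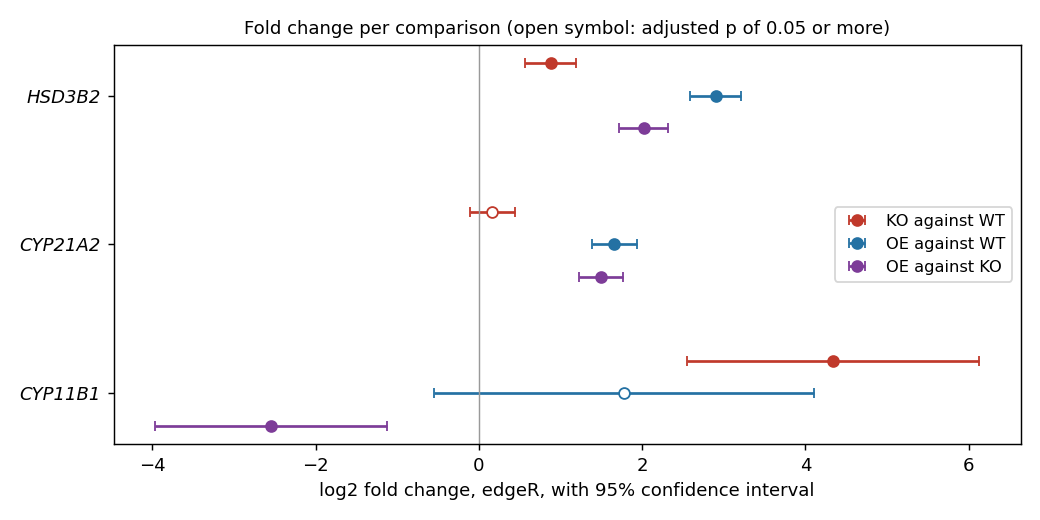
Log2 fold change with its 95% confidence interval from edgeR for the 3 genes that passed the filter, in KO against WT, OE-labelled libraries against WT and OE-labelled libraries against KO, with open symbols where the adjusted p was 0.05 or more. The interval of HSD3B2 lies above 0 in all 3 comparisons, that of CYP21A2 lies above 0 in the 2 that involve OE-labelled libraries and crosses 0 in KO against WT (-0.11 to 0.44), and CYP11B1 has the widest intervals and opposite signs for KO against WT (4.34) and OE-labelled libraries against KO (-2.55).

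Per length of exon (RPKM, the CPM divided by exon length), the order of the 5 genes differed between groups only at its low end. In WT, CYP21A2 was highest at 36.2 ± 2.94 RPKM, followed by HSD3B2 at 6.05 ± 0.351, CYP11B2 at 0.0922 ± 0.125, CYP11B1 at 0.0182 ± 0.0316 and HSD3B1 at 0 (SD, n = 3). The last 3 overlapped between libraries. In KO the order was CYP21A2 at 40.5 ± 6.29 RPKM, HSD3B2 at 11.1 ± 1.34, CYP11B1 at 0.437 ± 0.0686, CYP11B2 at 0.164 ± 0.0303 and HSD3B1 at 0.0614 ± 0.0533, with no overlap between neighbours. In OE-labelled libraries it was CYP21A2 at 114 ± 9.55 RPKM, HSD3B2 at 45.2 ± 2.62, CYP11B2 at 0.276 ± 0.0482, CYP11B1 at 0.0762 ± 0.0481 and HSD3B1 at 0.0428 ± 0.0452, and only the last pair overlapped. CYP11B1 thus stood above CYP11B2 in the 3 KO libraries and below it in the 3 labelled OE. Both CYP11B genes were at most at 0.514 RPKM in any of the 9 libraries, whereas HSD3B2 and CYP21A2 were at 5.76 RPKM or more in all of them.

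**Figure D4:**
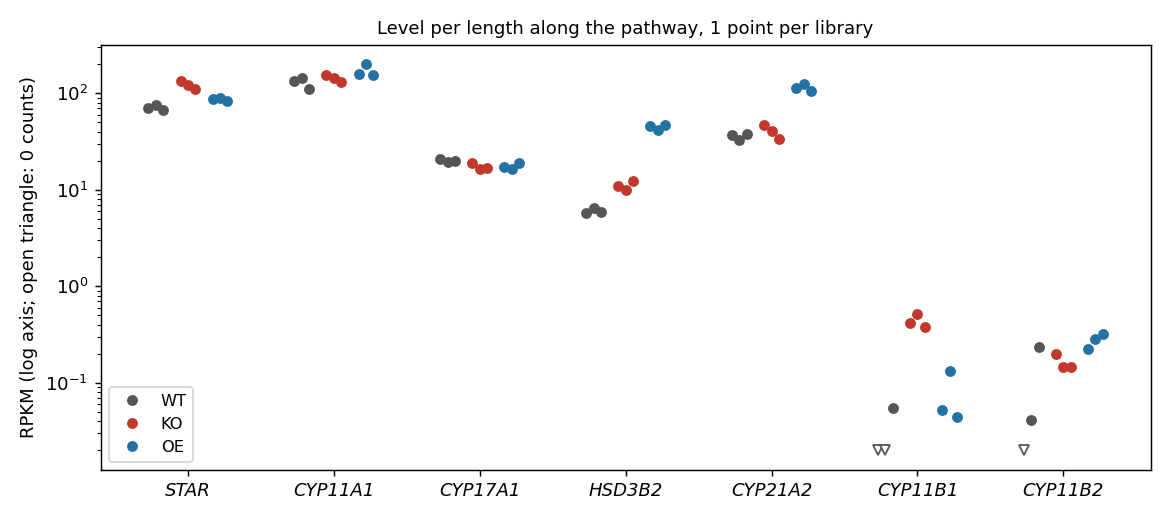
Level per exon length (RPKM, log axis) of the genes of the route from cholesterol to cortisol and aldosterone, with 1 point per library and open triangles for 0 counts. HSD3B2 passes from 5.76 to 6.44 RPKM in WT to 42.2 to 46.9 in OE-labelled libraries, where STAR (log2 fold change 0.28), CYP11A1 (0.39) and CYP17A1 (-0.19) differ less from WT, while in KO STAR (0.77) differs from WT about as much as HSD3B2 (0.88), and both CYP11B genes lie far below the rest.

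The balance with CYP17A1 was examined because both CYP17A1, the hydroxylase and lyase that directs steroids to cortisol and androgens, and HSD3B2 act on pregnenolone. CYP17A1 was at 68.0 ± 1.98 CPM in WT, 58.9 ± 4.54 in KO and 59.5 ± 4.54 in OE-labelled libraries, and was not called against WT (log2 fold change -0.21 ± 0.13 and -0.19 ± 0.13, adjusted p = 0.285 and 0.298). Per length, WT replicates 1 to 3 had ratios of HSD3B2 to CYP17A1 of 0.278, 0.330 and 0.297. The KO replicates had ratios of 0.582, 0.596 and 0.752, and the OE-labelled replicates of 2.67, 2.58 and 2.47. HSD3B2 thus lay below CYP17A1 in all WT and KO libraries and above it in all libraries labelled OE. On the log2 scale the ratio was 1.09 higher in KO than in WT and 3.09 higher in OE-labelled libraries. The ratio of CYP21A2 to CYP17A1 was 1.68 to 1.91 in WT, 2.04 to 2.46 in KO and 5.55 to 7.61 in OE-labelled libraries. HSD3B2 also gained on CYP21A2, from a ratio of 0.154 to 0.196 in WT to 0.237 to 0.368 in KO and 0.339 to 0.445 in OE-labelled libraries, where the last 2 ranges overlap. Its ratio to CYP11A1 was 0.0424 to 0.0532 in WT and 0.208 to 0.304 in OE-labelled libraries. Each of these contrasts against WT had p = 0.1 in an exact two-sided permutation test, the smallest possible, and an adjusted p of 0.109 over the 12 ratios and comparisons tested, so the design could not pass a threshold of 0.05.

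**Figure D5:**
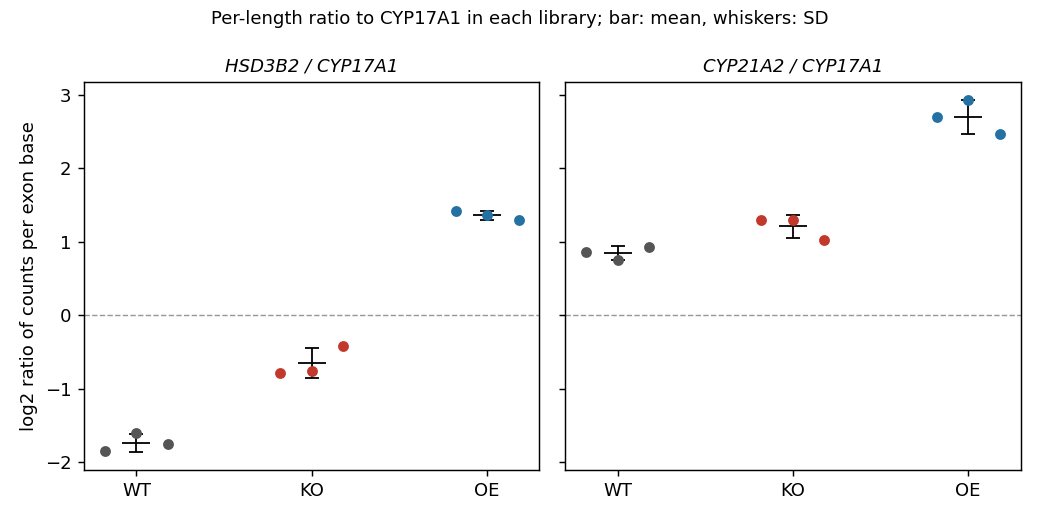
Log2 ratio of HSD3B2 and of CYP21A2 to CYP17A1, in counts per exon base, in each library with group means and SD over 3 libraries, and a dashed line where the genes are equal. HSD3B2 crosses the line only in OE-labelled libraries, at ratios of 2.47 to 2.67, and CYP21A2 lies above it in every library.

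Other called genes of steroid synthesis and metabolism had smaller log2 fold changes in OE-labelled libraries than HSD3B2 and CYP21A2. In OE-labelled libraries against WT, 5 of 16 tested genes were higher and 0 were lower, with a median log2 fold change of 0.25 beside -0.01 over all genes tested. CYP19A1, the aromatase, was higher by 1.04 ± 0.13 on the log2 scale (adjusted p = 1.95e-04). The others were CYB5A at 0.55, STARD3 at 0.48, HSD11B2 at 1.10 and CYP11A1 at 0.39. Their calls were lost without WT replicate 1, WT replicate 3 or OE replicate 2, HSD11B2 also without WT replicate 2 or OE replicate 3, STARD3 without OE replicate 3 and CYP11A1 without KO replicate 2. With the correction for gene length CYP11A1 (0.27, adjusted p = 0.0776) and HSD11B2 (0.91, 0.0706) were not called, while CYB5A and STARD3 were. With library totals alone STARD3, CYP11A1 and HSD11B2 were not called (0.0775, 0.117 and 0.0534), nor was HSD11B2 with DESeq2 (0.0515). Their largest adjusted p over the alternatives was 0.0928 for CYB5A, 0.132 for STARD3, 0.137 for HSD11B2 and 0.201 for CYP11A1. In KO against WT, 4 were higher and 1 lower, with a median of 0.29 beside -0.01 over all genes. CYP19A1 was higher by 3.60 ± 0.14 (18.9 to 23.0 CPM in WT and 238 to 287 CPM in KO, adjusted p = 8.65e-11). SULT2A1, the sulfotransferase of dehydroepiandrosterone, was higher by 1.01 (6.09e-06) and STAR by 0.77 (8.00e-05). SRD5A1, a steroid reductase, was higher by 0.60 (0.0146, and 0.0626 and 0.0792 without WT replicate 2 or KO replicate 2), and its relative SRD5A3 was lower by 1.15 (log2 fold change -1.15, adjusted p = 0.00171). Between the libraries labelled OE and KO, SRD5A3 was higher and CYP19A1, SULT2A1, STAR, HSD17B12 and SRD5A1 were lower, with a median of 0.08 beside -0.004 over all genes.

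The P450 enzymes of the route draw electrons from POR in the endoplasmic reticulum, as CYP21A2 does, or from FDXR and FDX1 in the mitochondrion, as the CYP11B enzymes do. Among 9 tested electron donors and their partners, 5 were higher and 1 lower in OE-labelled libraries against WT, with a median log2 fold change of 0.40 beside -0.01 over all genes. POR was higher by 0.53 ± 0.12 (548 CPM in WT and 791 CPM in OE-labelled libraries, adjusted p = 0.00826) and FDXR by 0.70 ± 0.16 (0.00751). H6PD, which supplies NADPH inside the endoplasmic reticulum and is not itself a donor to these P450 enzymes, was lower (-0.76 ± 0.15, adjusted p = 0.00336). These 3 calls held without any 1 library. CYB5B at 0.40 and FDX1 at 0.40 were also called (0.0100 and 0.0457), as was CYB5A, which is in both lists. CYB5B lost its call without WT replicate 1 (0.0616). FDX1 lost its call without any 1 of 6 libraries (WT replicates 1 and 3, the 3 KO replicates and OE replicate 2), with a largest adjusted p of 0.200, and with the correction for gene length (0.114). In KO against WT, 2 of the 9 were higher and 0 lower, with a median of 0.18 beside -0.01 over all genes. They were PGRMC1, a heme-binding partner of P450 enzymes, at 0.59 ± 0.11 (8.66e-04) and FDX1 at 0.56 ± 0.13 (0.00719). Between the libraries labelled OE and KO, FDXR and CYB5B were higher and H6PD and PGRMC1 lower, with a median of 0.03 beside -0.004.

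RNA of a list of regulators of these genes' promoters was examined as well, without a measure of their binding or activity. NR5A1 (SF-1), the main activator of steroidogenic genes, was at 768 CPM in WT, 909 in KO and 748 in OE-labelled libraries, and was not called against WT (log2 fold change 0.24 ± 0.11 and -0.04 ± 0.11, adjusted p = 0.160 and 0.847). With the correction for gene length NR5A1 was called in KO against WT (0.28, adjusted p = 0.0458, and 0.0259 with the replicate block as well). Of 19 regulators tested, 1 was higher and 2 were lower in OE-labelled libraries against WT, with a median log2 fold change of -0.13 beside -0.01 over all genes. CREM, a cyclic AMP responsive factor, was higher (0.41, adjusted p = 0.0117), and SP1 (-0.53, 0.0156) and NR4A1 (-0.52, 0.0289), a nuclear receptor of the NR4A family, were lower. None of these calls held without WT replicate 1 or WT replicate 3, with adjusted p-values of up to 0.0660, 0.0752 and 0.139. SP1 and NR4A1 also lost theirs without OE replicate 2, and NR4A1 without OE replicate 3 and with the correction for gene length. In KO against WT, 3 regulators were higher and 1 lower. NR0B1 (DAX-1), a repressor of NR5A1, was higher by 1.68 ± 0.24 (4.76 CPM in WT, 15.3 in KO and 5.88 in OE-labelled libraries, adjusted p = 1.10e-04). CREM (0.38, 0.0156) was also higher and NR4A3 was lower (-0.89, 0.00174), with a median of 0.21 beside -0.01. CREM lost this call without WT replicate 1 or WT replicate 3 (0.0619 and 0.0622). In OE-labelled libraries against KO, NR4A3 was higher and 6 regulators were lower, among them NR0B1, NR4A1, NR2F2, SP1 and SP3, with a median of -0.28 beside -0.004. With the correction for gene length SP3 turned from -0.40 to 0.12 and was not called.

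Genes of the angiotensin II, potassium and ACTH signalling that controls CYP11B2 and CYP11B1 showed no common direction. Of 18 tested, 3 were higher and 4 lower in OE-labelled libraries against WT, with a median log2 fold change of -0.04 beside -0.01 over all genes. AGTR1, the angiotensin II receptor, was higher by 0.48 (172 CPM in WT and 239.9 CPM in OE-labelled libraries, adjusted p = 0.00954), VSNL1 by 0.48 (0.00798) and KCNK3 by 0.34 (0.0356). CACNA1D, a calcium channel subunit, was lower (-1.13 ± 0.19, adjusted p = 0.00124), as were ADCY3 (-0.71, 0.00649) and GNAS (-0.39, 0.0135). The calls of CACNA1D and ADCY3 held in all alternatives run. The other genes named here lost theirs in some of them, each with 1 library left out: AGTR1 without WT replicate 1 (0.0520) or OE replicate 3 (0.0521), VSNL1 without WT replicate 1 (0.0522), GNAS without WT replicate 1 (0.0806) or WT replicate 3 (0.0596), and KCNK3 without any 1 of 5 libraries (up to 0.133). KCNK3 rested on WT replicates 2 and 3, KO replicate 2 and OE replicates 2 and 3. GNAS was at -0.02 with the correction for gene length. In KO against WT, CAMK1, PRKACA, CACNA1H and PRKAR1A were higher and GNAS and PRKAR1B lower, with a median of -0.06 beside -0.01, and each of these 6 lost its call when 1 library was left out. For GNAS and PRKAR1B this was WT replicate 1 (0.0507 and 0.0598), for CAMK1 WT replicate 3 or KO replicate 3 (up to 0.0541), and for PRKACA WT replicate 2 or KO replicate 2 (up to 0.0673). For CACNA1H it was WT replicates 2 and 3 and KO replicates 1 and 3 (up to 0.112), and for PRKAR1A all WT replicates, KO replicates 2 and 3 and OE replicate 1 (up to 0.151). Between OE-labelled libraries and KO 4 were higher (AGTR1, VSNL1, PRKAR1B and KCNK3) and 7 lower, with a median of -0.07.

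Markers of the zona glomerulosa, the layer that makes aldosterone, were mixed. Over all genes tested, 9.16% were higher and 9.60% lower in KO against WT, with a median log2 fold change of -0.01. The shares were 9.65% and 11.0% in OE-labelled libraries against WT (median -0.01) and 19.0% and 20.6% against KO (-0.004). Of 7 tested, DAB2 was higher and WNT4 and NEFM lower in KO against WT, with a median log2 fold change of -0.14. VSNL1 and AGTR1 were higher and LEF1 and NEFM lower in OE-labelled libraries against WT, with a median of -0.04. AGTR1, VSNL1 and WNT4 were higher and LEF1 and DAB2 lower between the libraries labelled OE and KO, with a median of -0.08. Of 8 textbook targets of the glucocorticoid receptor, 0 were higher and 2 lower in KO against WT (SGK1, -0.77 ± 0.14, adjusted p = 9.69e-04, and DUSP1, -0.58, 0.0324), with a median of -0.26. In OE-labelled libraries against WT, 0 were higher and 3 lower (TSC22D3, -0.59, 0.0136, PER1, -0.65, 0.0171, and ZBTB16, -1.40, 0.0277), with a median of -0.49. DUSP1 lost its call without WT replicate 1, WT replicate 2 or KO replicate 3 (up to 0.154), PER1 without WT replicate 1 or WT replicate 3 (up to 0.0985), and ZBTB16 without WT replicate 1, WT replicate 3 or OE replicate 3 (up to 0.123) and with the correction for gene length (0.0842). WNT4 lost its call in KO when WT replicate 1 or either of KO replicates 2 and 3 was left out (up to 0.0869). Between the libraries labelled OE and KO, DUSP1 and SGK1 were higher and TSC22D3, PER1 and FKBP5 lower, with a median of -0.29. Of 40 genes of these lists, the copies and SGPL1 called between the libraries labelled OE and KO, 13 lost their call when some 1 library was left out (TNXB, SRD5A1, FDXR, CYB5B, PGRMC1, SP3, KCNK3, PRKACB, ADCY3, CAMK1, WNT4, SGK1 and DUSP1). With the correction for gene length 7 lost it, among them SRD5A1, SP3, CACNA1H, PRKACB, FKBP5 and DUSP1.

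Genes with a like pattern over the 9 libraries were found by Pearson's correlation of log2 CPM, given as a description since the libraries share their groups, depths and length slopes. HSD3B2 was most like LAPTM4B (r = 0.995), which was at 139, 199.6 and 493 CPM on average in WT, KO and OE-labelled libraries, followed by MT-ND2 (0.978), TMED2 (0.978), GRB14 (0.975) and MXRA7 (0.972). CYP21A2 was most like TNFRSF12A (0.977), PSMC4 (0.970), MT-ND2 (0.968), MAOA (0.967) and MSRA (0.966). HSD3B2 and CYP21A2 had a correlation of 0.949 with each other, and CYP11B1 of 0.062 and -0.099 with them. CYP11B1 was most like H4C8 (0.979), DENND2D (0.974), MFAP2 (0.971), ATP10A (0.968) and C4orf50 (0.968), all highest in KO on average.

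The chromosomal neighbours of the members were read as well. The 50 tested genes nearest to HSD3B2 were taken, 25 on each side. Their median log2 fold change was 0.14 in KO against WT and -0.07 in OE-labelled libraries against WT. In the latter comparison 1 was higher and 5 lower, beside 9.65% and 11.0% of all genes tested. Those around CYP21A2 had medians of -0.02 and 0.29. In OE-labelled libraries against WT 8 of them were higher and 2 lower, beside the same shares of 9.65% and 11.0%. The higher ones include CYP21A1P and TNXA, and whether their counts hold reads of CYP21A2 was not tested. The 50 around CYP11B1 had medians of 0.06 in KO and -0.10 in OE-labelled libraries. In KO against WT 3 were higher and 6 lower, beside 9.16% and 9.60% of all genes tested.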

How the data were processed

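Raw counts of reads per gene, 1 table for each of 9 libraries, were deposited by the authors. Per the file headers, featureCounts 1.5.2 made them on Ensembl release 101 (GRCh38) with annotation and output options only, so reads were counted without regard to strand and reads of several places or genes were left out. HISAT2 1.03 and featureCounts 0.1.0, besides DESeq2, Subread and FastQC, are named in the submitters' processing notes. From these counts, 14150 of 60671 genes passed filterByExpr (minimum count 10), and HSD3B1 and CYP11B2 did not. The 3 groups were fitted together with the quasi-likelihood test of edgeR 4.0.16 (R 4.3.3) with TMM scaling, a term for group and Benjamini-Hochberg adjustment over all genes tested. Calls required an adjusted p under 0.05. CPM and RPKM use the scaled totals of tested genes, and errors are standard errors or SD as named. Library totals of 8006873 to 10895080 counts gave a median standard error of 0.19 in log2 fold change. On simulated counts for the libraries labelled OE against WT (13909 genes run), 85.6% of genes changed 2-fold and 99% of those changed 4-fold were recovered. Of all calls on these counts, 5.7% were false. The simulation gave all genes the same spread and left out the length slopes, so it does not give the recovery in the real libraries. Alternatives were DESeq2 1.42.0, limma-voom (limma 3.58.1), other scalings and filters, a correction for gene length, a replicate block, fits of 2 groups and libraries left out. Named were the 5 genes, SGPL1, close copies, the called members of each list (up to 5 with the smallest adjusted p, or all of a count of 5 or fewer) and the 5 protein-coding genes most correlated with each tested member. NR5A1, CYP17A1, SP3, C4B, STK19 and list genes named for a lost call were added after their values were seen. Some members of the lists are counted but not reported here by name. Members and lists were chosen with earlier results of these data known. No 2 libraries of a group agreed within sampling noise. Symbols were found for 58536 identifiers (96.5%). Upstream sequences are from RefSeq (GRCh38.p14) and transcripts from GENCODE release 29.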

Additional observations from a re-analysis of the deposited data

How the results depend on the processing

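All calls of HSD3B2, CYP21A2 and CYP11B1 kept their direction and their side of the threshold in every alternative that gave a value. HSD3B2 ranged over 2.69 to 3.01 and CYP21A2 over 1.48 to 1.72 in OE-labelled libraries against WT, and CYP11B1 over 3.81 to 7.04 in KO against WT. A minimum count of 30 removed CYP11B1 and so gave it no value, and HSD3B1 and CYP11B2 had values in the scaling and left-out-library alternatives only, as differences in mean CPM, besides the unfiltered fits. Between the libraries labelled OE and KO the HSD3B1 difference of -0.0453 CPM ranged from -0.120 to 0.00706 with 1 library left out, and turned positive without OE replicate 2. The CYP21A2 share of its pair, -0.04 percentage points lower in KO than in WT, ranged from -0.16 to 0.14 and turned without KO replicate 1 (0.14) or WT replicate 2 (0.06). NR5A1 in OE-labelled libraries against WT ranged from -0.12 to 0.03, and SP3 between the libraries labelled OE and KO went from -0.40 to 0.12 with the correction for gene length, with and without the block.

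Counts of called genes moved most with WT replicate 1, WT replicate 3 and OE replicate 2. In OE-labelled libraries against WT, the 1365 higher genes ranged from 485 to 1798 and the 1559 lower genes from 759 to 1875 with 1 library left out. Without WT replicate 1, WT replicate 3 or OE replicate 2 there were 557, 485 and 817 higher and 824, 759 and 1032 lower genes. With library totals alone 765 were higher, the median of all genes was -0.129 and 25.9% of calls were higher, against 46.7% with TMM. The 1359 lower genes in KO against WT ranged from 885 to 1644, the lowest without KO replicate 2. The cause was not tested. Of list genes called in OE-labelled libraries against WT, 10 of 27 held in every alternative, and 13 of 23 in KO against WT. With both WT replicate 2 and OE replicate 2 left out, an alternative chosen after the data were seen, the members kept their calls.

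Same-numbered libraries did not steadily deviate together (correlations of -0.14 to 0.25, against -0.28 to 0.22 for unlike numbers), so the numbers were not taken as pairs. A replicate block still raised the counts of called genes, in KO against WT from 1296 to 1622 higher and from 1359 to 1613 lower. Whether the numbers mark a shared handling was not tested. With the replicate block HSD3B2 was at 2.90 (adjusted p = 1.28e-10) and CYP21A2 at 1.65 (2.78e-08) in OE-labelled libraries against WT, CYP11B1 was at 4.33 in KO against WT (0.00167), and 1820 genes were higher and 1937 lower in OE-labelled libraries. Not every library correlated best with its own number. At most 10 reads a library limit HSD3B1 and CYP11B2, and unassigned reads of shared stretches limit the level of CYP21A2.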
